A study of Mus musculus with 12 samples.

Results

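Connexins, the subunits of gap junctions, were followed in the mouse auditory nerve after a lesion of its neurons. The 8 genes examined were Gjb1 and Gjc3, connexins of Schwann cells, Gjb2 and Gjb6, connexins of cochlear epithelium and fibrocytes, Gja1, a connexin of many cell types, Gja4 and Gja5, connexins of arterial endothelium, and Gjc1, a connexin of vascular and cardiac muscle. Every probe set whose array annotation gives exactly 1 of these symbols was taken, which yielded 16 of the 45037 probe sets tested: 6 for Gja1, 2 each for Gjb1, Gjc3 and Gjc1, and 1 each for the other 4 genes. Of the 16, 14 reached a log2 value above 6 on at least 3 arrays. A probe set is a group of short array probes against 1 transcript, and each one is given here by its array identifier. Identifiers that end in _x_at contain probes that can also bind other transcripts, and those that end in _s_at contain probes shared by several transcripts.

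Adult CBA/CaJ mice aged 8 to 12 weeks received 3 mM ouabain, which inhibits Na,K-ATPase, in the round window niche of the right ear for about 60 min, and the unoperated left ears were the controls. Control and ouabain-treated nerves were taken at 3 and at 7 days, which made 4 groups with 3 Affymetrix arrays apiece. The controls had neither surgery nor vehicle, so ouabain and the operation cannot be told apart, nor can treatment and body side, and each array carried RNA pooled from 2 preparations of the modiolus, the core of the cochlea with spiral ganglion and nerve. The animals behind a pool are not named, and p-values therefore cover the spread among pooled samples. Values are the authors' RMA log2 expression values, with array medians of 6.01 to 6.09 and lower quartiles of 4.26 to 4.38. Log2 fold changes are means of treated nerves minus means of controls of that day. A call of higher or lower required a fold above 1.5 and, by limma over all 45037 probe sets, a p under 0.05 after Benjamini-Hochberg adjustment.

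Each connexin spans the membrane several times, and a hexamer of connexins in 1 cell docks with a hexamer in the next to form a channel for ions and small molecules. In myelinating Schwann cells the protein of Gjb1, Cx32, lies in the noncompact myelin of paranodes and incisures and is thought to shorten the diffusion path across the myelin sheath, and its loss causes an X-linked Charcot-Marie-Tooth neuropathy. Cx29, the protein of Gjc3, is a second connexin of myelinating Schwann cells and is present on glia of the auditory nerve. In the cochlea Cx26 (Gjb2) and Cx30 (Gjb6) couple supporting cells and fibrocytes, and mutations of GJB2 are a common cause of inherited deafness.

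At 3 days 3 of the 16 connexin probe sets were called higher (both of Gjc1 and 1 of Gjc3) and 0 lower by limma, where 5.71% and 6.58% of all probe sets were. At an unadjusted p under 0.05, Gjb2 and Gjb6 were lower at that day, and with the methods' t-test and the fold threshold 0 were. At 7 days 5 of the 16 were called higher at 7 days (3 of Gja1 and 2 of Gjc1) and 3 lower (2 of Gjb1 and 1 of Gjc3), where 6.14% and 6.51% of all probe sets were. Probe sets of 1 gene are not independent of each other, so these counts stand for 4 genes. With its 6 probe sets averaged, Gja1 had a log2 fold change of 0.58 at 7 days (adjusted p = 0.0117 by limma), just under the fold threshold. Ranges of treated and of control arrays were separate in 7 of the 16 connexin probe sets at 3 days, where 37% of all probe sets were without overlap, and in 12 at 7 days, where 38.3% were.

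Both Schwann cell connexins fell at 7 days, and Gjc3 rose at 3 days, when Gjb1 passed the p threshold alone. Start regions of these 2 genes are shown first, as those of the connexins called lower at 7 days. RefSeq promoter windows were found for 7 of the 8 genes (build GRCm38.p6), all but Gjc1. Of the 4 annotated starts of Gjb1, the window printed is the one with the most motif matches, chosen after the search, at chrX:101383482-101383731 on the plus strand. The window of the single start of Gjc3 lay at chr5:137963099-137963348 on the minus strand. Both are the 250 bases before the start, written 5′ to 3′, with capitals for matches to the SOX motifs named next.
Gjb1: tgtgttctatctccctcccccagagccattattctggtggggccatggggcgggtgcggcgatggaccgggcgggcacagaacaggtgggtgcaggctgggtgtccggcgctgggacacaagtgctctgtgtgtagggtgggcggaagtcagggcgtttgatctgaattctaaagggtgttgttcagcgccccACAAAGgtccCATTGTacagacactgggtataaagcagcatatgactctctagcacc
Gjc3: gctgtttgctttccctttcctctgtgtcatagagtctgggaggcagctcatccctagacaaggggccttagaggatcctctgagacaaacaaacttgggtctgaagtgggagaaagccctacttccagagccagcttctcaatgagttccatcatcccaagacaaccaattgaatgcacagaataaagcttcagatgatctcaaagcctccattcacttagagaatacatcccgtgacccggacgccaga
Motifs for some of the factors listed with the regulators of myelin genes, Yy1 left out, were searched on both strands. These were SOX (ACAAAG or ACAATG), EGR (GNGGGGGCG or GCGTGGGNG), the POU octamer (ATGCAAAT) and AP-1 (TGANTCA), and no matches overlapped in the windows printed. The printed Gjb1 window contained 2 SOX matches, ACAAAG from base 194 and CATTGT, the reverse complement of ACAATG, from base 204. Of the other 3 windows of Gjb1, that of start 1 held 1 SOX match, ACAAAG from base 75, and those of starts 2 and 3 held no match to any of the motifs. Of 32851 windows of the same length, 25.2% held at least 1 SOX match and 4.1% held 2 or more, shares for single windows that do not allow for the choice among 4. No match to the 4 motifs was found in the Gjc3 window, where EGR, octamer and AP-1 motifs were matched in 8.3%, 1.6% and 6.7% of all windows. Among the other connexins with a window, that of Gja5 held 1 SOX match and that of Gja1 held 1 AP-1 match. Those of Gjb2, Gjb6 and Gja4 held no match. These letters are a description of the sequence, and binding was not measured.

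The brighter Gjb1 probe set, 1448767_s_at, stood at log2 values of 8.89, 8.97 and 8.90 in the 3-day controls and at 9.28, 9.41 and 9.40 in the ouabain-treated nerves of that day. At 7 days it stood at 8.93, 9.18 and 8.96 in the controls and at 7.83, 7.67 and 7.84 after ouabain. Every treated array was above the controls at 3 days and below them at 7 days. The log2 fold change was 0.44 (standard error 0.09, adjusted p = 0.0031 by limma, n = 3 arrays per group) at 3 days, a 1.36-fold difference that passed the p threshold but not the fold threshold. At 7 days it was −1.24 (standard error 0.09, adjusted p = 2.05e-06), a 2.36-fold lower level. The other Gjb1 probe set, 1448766_at, gave log2 values of 6.69, 7.14 and 6.80 against 7.21, 7.56 and 7.43 at 3 days, and of 6.91, 6.96 and 6.93 against 5.82, 5.86 and 5.69 at 7 days, controls first. Its groups were likewise separate at each day. Its log2 fold changes were 0.52 (standard error 0.12, adjusted p = 0.00736) and −1.14 (standard error 0.12, adjusted p = 2.9e-05), so that both probe sets of Gjb1 were called lower at 7 days and neither was called at 3 days. Without control replicate 2 or without ouabain-treated replicate 1 of 3 days, 1448766_at was called higher at 3 days, with log2 fold changes of 0.65 and 0.62. In bulk tissue such as this, fewer cells of a type and less RNA per cell cannot be told apart.

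Gjc3 followed the same course in its brighter probe set, 1422042_at. The 3-day controls stood at log2 values of 6.93, 6.95 and 6.83 and the treated nerves at 7.37, 7.80 and 7.69, while at 7 days the controls stood at 7.01, 7.32 and 6.79 and the treated nerves at 5.76, 5.66 and 5.94. The groups did not overlap at either day, first above and then below. The log2 fold changes were 0.72 at 3 days (standard error 0.14, adjusted p = 0.00265 by limma, 1.65-fold) and −1.25 at 7 days (standard error 0.14, adjusted p = 4.91e-05, 2.38-fold), both called. Over all probe sets, 11 of 45037 or 0.0244% were called higher at 3 days and lower at 7 days, and 1422042_at was 1 of them. The second Gjc3 probe set, 1445523_at, disagreed. It lay between 3.90 and 4.23 on all 12 arrays, under the lower quartile of each array, and its log2 fold changes of 0.06 and −0.12 did not pass (adjusted p = 0.716 and 0.377). A value under the lower quartile of an array gives little room for a measured fall. When both probe sets were averaged, Gjc3 had log2 fold changes of 0.39 and −0.69 and was called at 7 days only.

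The response itself differed between the days for both genes. The change at 7 days minus the change at 3 days was −1.68 and −1.66 on the log2 scale for Gjb1 (1448767_s_at and 1448766_at, adjusted p = 7.8e-05 and 0.000913 by limma) and −1.97 for Gjc3 in 1422042_at (adjusted p = 0.00086). These were the 3 of 16 connexin probe sets called lower in this comparison, where 0.653% of all probe sets were. No connexin probe set differed between the 7-day and the 3-day controls (0.0111% of all probe sets did), and the count by limma was also 0 at an unadjusted p under 0.05. When each of 18192 other genes, represented by its brightest probe set, was compared with Gjb1 over the 12 arrays after subtraction of its own mean, Gjc3 was the nearest (root mean square difference 0.15 on the log2 scale), and Gjb1 was in turn the nearest to Gjc3. The next were Cerk, the ceramide kinase, at 0.173 and S100a3, a calcium-binding protein, at 0.194 from Gjb1, and S100a3 at 0.193 and Cerk at 0.252 from Gjc3. S100a3 had log2 fold changes of 0.60 and −1.06 and Cerk of 0.18 and −1.14 at 3 and 7 days. This likeness is a description over 12 arrays that share their treatment groups.

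**Figure D1:**
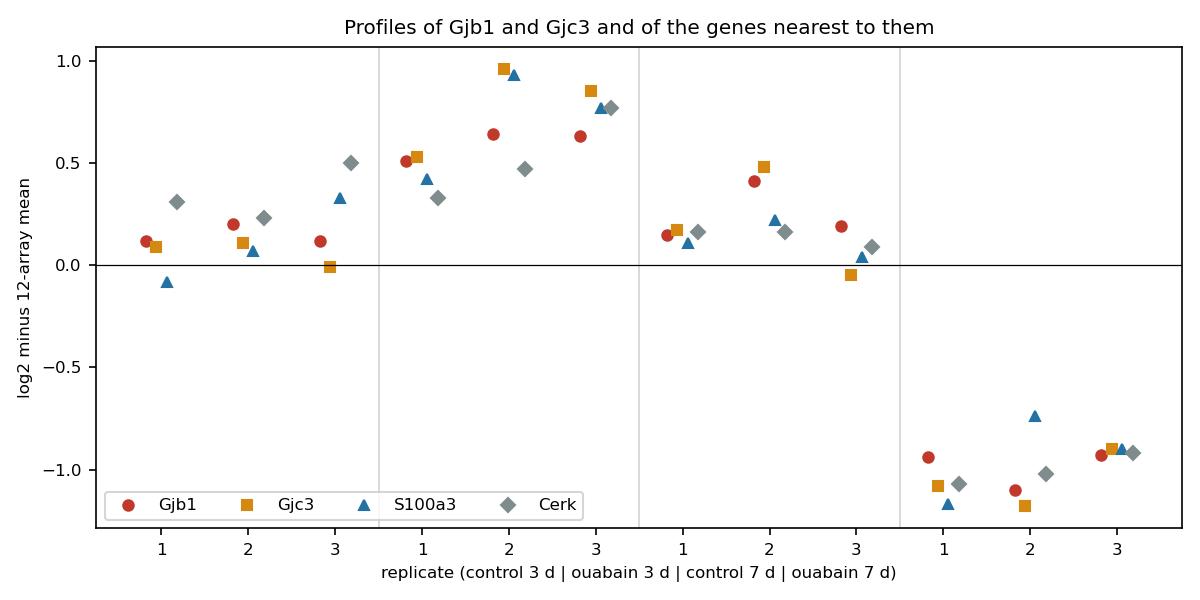
Log2 value minus its 12-array mean for the brightest probe sets of Gjb1, Gjc3, S100a3 and Cerk, with 1 symbol per array and the 4 groups separated by vertical lines. All 4 genes are above their mean in ouabain-treated nerves at 3 days and below it in those at 7 days.

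Myelin genes and their regulators were set beside this pair. Of 7 measured genes of myelinating Schwann cells, 3 were lower and none higher at 3 days and 5 were lower at 7 days, with median log2 fold changes of −0.58 and −1.34, while over all 18193 genes, each by its brightest probe set, 7.51% were higher and 8.06% lower at 3 days, 7.57% higher and 8.2% lower at 7 days, and the medians were 0.01 and 0.03. The counts of all gene lists that follow stand against these shares. Pmp22, a protein of compact myelin, had −0.58 and −0.93 as log2 fold changes (standard error 0.08), with a call at 7 days only. Mbp, the myelin basic protein, had −0.13 and −0.10, and none of its 8 probe sets was called. Mag, an adhesion protein at the inner face of the myelin sheath, had 0.48 and −0.43 (standard error 0.17 for each), and neither passed (adjusted p = 0.0677 and 0.0948). The Mag controls were 0.6 higher on the log2 scale at 7 days than at 3 days (not called). Its treated nerves stood at means of 9.48 and 9.17, so its change of sign rests in part on the controls. For Gjb1 (1448767_s_at and 1448766_at) and Gjc3 (1422042_at) that difference of controls was 0.1, 0.05 and 0.14. Ncmap, a protein of noncompact myelin named after its values were seen, had −1.47 and −2.48, and was the gene of this list whose response differed between the days (−1.01, adjusted p = 0.0346). Of 8 measured regulators 3 were higher and 1 was lower at each day, with medians of 0.33 and 0.42, and 1 differed in its response between the days. Egr2, the factor that drives myelination, fell in its brighter probe set at each day, with log2 fold changes of -0.78 and -1.74 (adjusted p = 0.0169 and 7.56e-05), and the second probe set was also called at each day. The 3-day call of Egr2 was lost without control replicate 2 (adjusted p = 0.0735) or ouabain-treated replicate 1 (adjusted p = 0.0682) of that day. Sox10, a factor of all Schwann cell stages, had log2 fold changes of 0.51 and 0.66, with the second called in 1 of its 3 probe sets. Nab1, a cofactor of Egr2, had 0.11 and 0.09. Pou3f1, a factor of promyelinating Schwann cells, is named after its values were seen. It rose by 1.40 on the log2 scale at 3 days (standard error 0.13, adjusted p = 1.34e-05) and had a value of 0.01 at 7 days (adjusted p = 0.96), and the difference of −1.39 was called (adjusted p = 0.00536), as in its other probe set. For immature and repair Schwann cells, 7 of 10 markers were higher and 1 was lower at each day. Ngfr, a neurotrophin receptor, had 2.35 and 2.17, and Gap43, a protein of growing axons and denervated Schwann cells, 3.53 and 3.74. Sox2, a factor of immature Schwann cells, had 1.22 and 1.21. The lower marker was Shh, named after its values were seen, with −0.69 and −1.16. Oligodendrocytes of the central part of the nerve also express both connexins. The mean log2 level of 7 oligodendrocyte markers lay between 7.61 and 8.54 in 3-day controls and 8.59 and 9.03 in treated nerves, and between 8.16 and 8.79 and 8.92 and 9.19 at 7 days, and their part in the values of Gjb1 and Gjc3 was not tested.

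**Figure D2:**
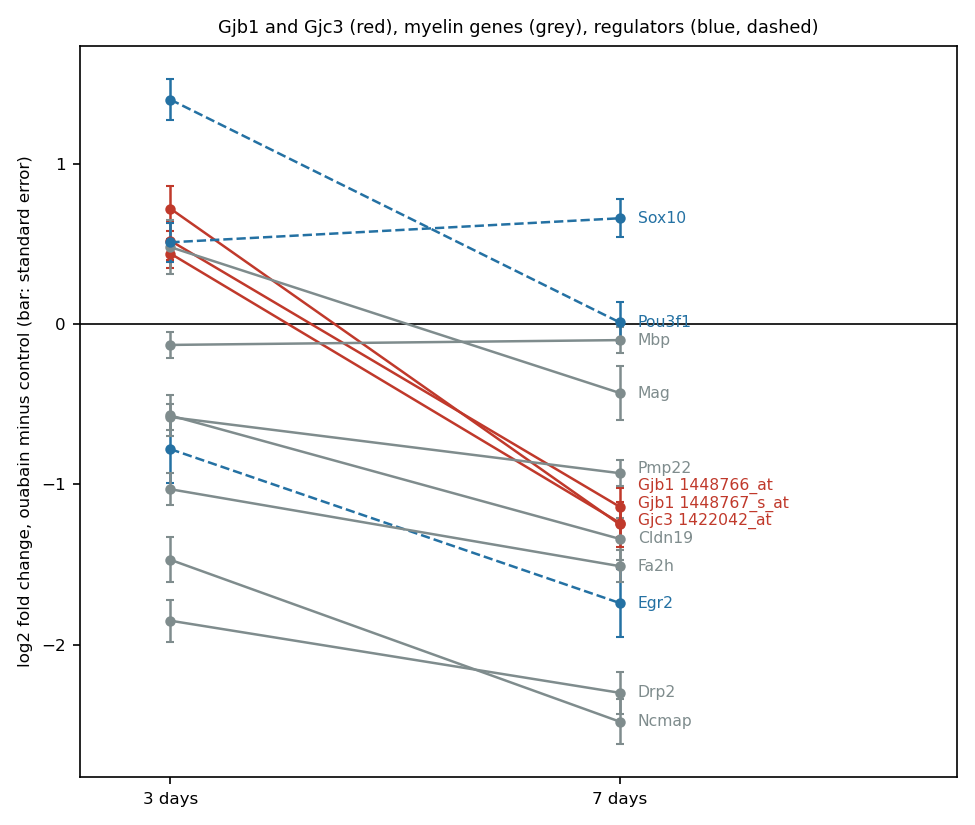
Log2 fold change of ouabain against control at 3 and 7 days for Gjb1 and Gjc3 (red, the probe sets with a mean log2 value above 6), 7 myelin genes (grey) and 3 regulators (blue, dashed), with bars for the standard error and n = 3 arrays per group. The connexin lines run from between 0.44 and 0.72 at 3 days to between −1.14 and −1.25 at 7 days. Egr2, Pmp22 and Mbp lie below 0 at each day, as do Cldn19, Fa2h, Drp2 and Ncmap, which are named after their values were seen. Mag also changes sign, from 0.48 to −0.43 (neither called), with controls that were 0.6 higher at 7 days than at 3 days. Sox10 lies above 0 at each day, and Pou3f1 lies at 1.40 and then 0.01.

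Gjc1 rose at both days, and by similar amounts in both probe sets. Probe set 1449094_at stood at log2 values of 8.14, 8.34 and 8.33 in 3-day controls and 9.29, 9.56 and 9.58 in treated nerves, and at 8.11, 8.27 and 8.39 against 9.53, 9.18 and 9.62 at 7 days. All treated arrays were above all controls. The log2 fold changes were 1.21 (standard error 0.13, adjusted p = 3.2e-05 by limma) and 1.19 (standard error 0.13, adjusted p = 3.6e-05), 2.31-fold and 2.27-fold. Probe set 1447787_x_at stood at log2 values of 6.91, 6.97 and 6.81 against 8.00, 8.21 and 8.26 at 3 days and of 7.05, 7.19 and 6.99 against 8.30, 8.33 and 8.31 at 7 days. Its log2 fold changes were 1.26 and 1.24 (standard error 0.09 for each), and both probe sets were called higher at both days, as were 3.02% of all probe sets. The difference of the responses was −0.02 in each probe set (adjusted p = 0.978 and 0.97). Gjc1 is known in smooth muscle. Of 10 measured markers of smooth muscle and pericytes 1 was lower and none higher at 3 days, while 7 days showed 3 higher. Acta2, the smooth muscle actin, had −0.55 and 0.35, and Tagln, an actin-binding protein, −0.58 and 0.00. Myh11, the smooth muscle myosin, had −0.99 (called) and 0.24. The 3 called higher at 7 days, named after their values were seen, were Pdgfrb, Notch3 and Lmod1. They had 0.32, 0.15 and −0.31 at 3 days and 0.85, 0.65 and 0.73 at 7 days. The mean log2 level of the list lay between 8.41 and 8.70 in 3-day controls, 8.38 and 8.45 in treated nerves of that day, 8.07 and 8.37 in 7-day controls, and 8.55 and 8.73 in the last group. Among 10 measured macrophage markers, 10 rose at 3 days and 9 rose at 7 days, with Cd68 at 3.08 and 2.33, Aif1 at 1.67 and 1.82, and Csf1r at 1.02 and 1.19, and the mean log2 level of the list rose from between 7.95 and 8.40 to between 9.81 and 10.14 at 3 days and from between 8.14 and 8.42 to between 9.96 and 10.16 at 7 days. The part of any of these cells in the rise of Gjc1 was not tested. The genes whose profile was nearest to that of Gjc1 were Wipf1, an actin regulator of blood cells, Xpa, a DNA repair protein, and Inpp5d, a phosphatase of blood cells, at root mean square differences of 0.114, 0.121 and 0.127.

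**Figure D3:**
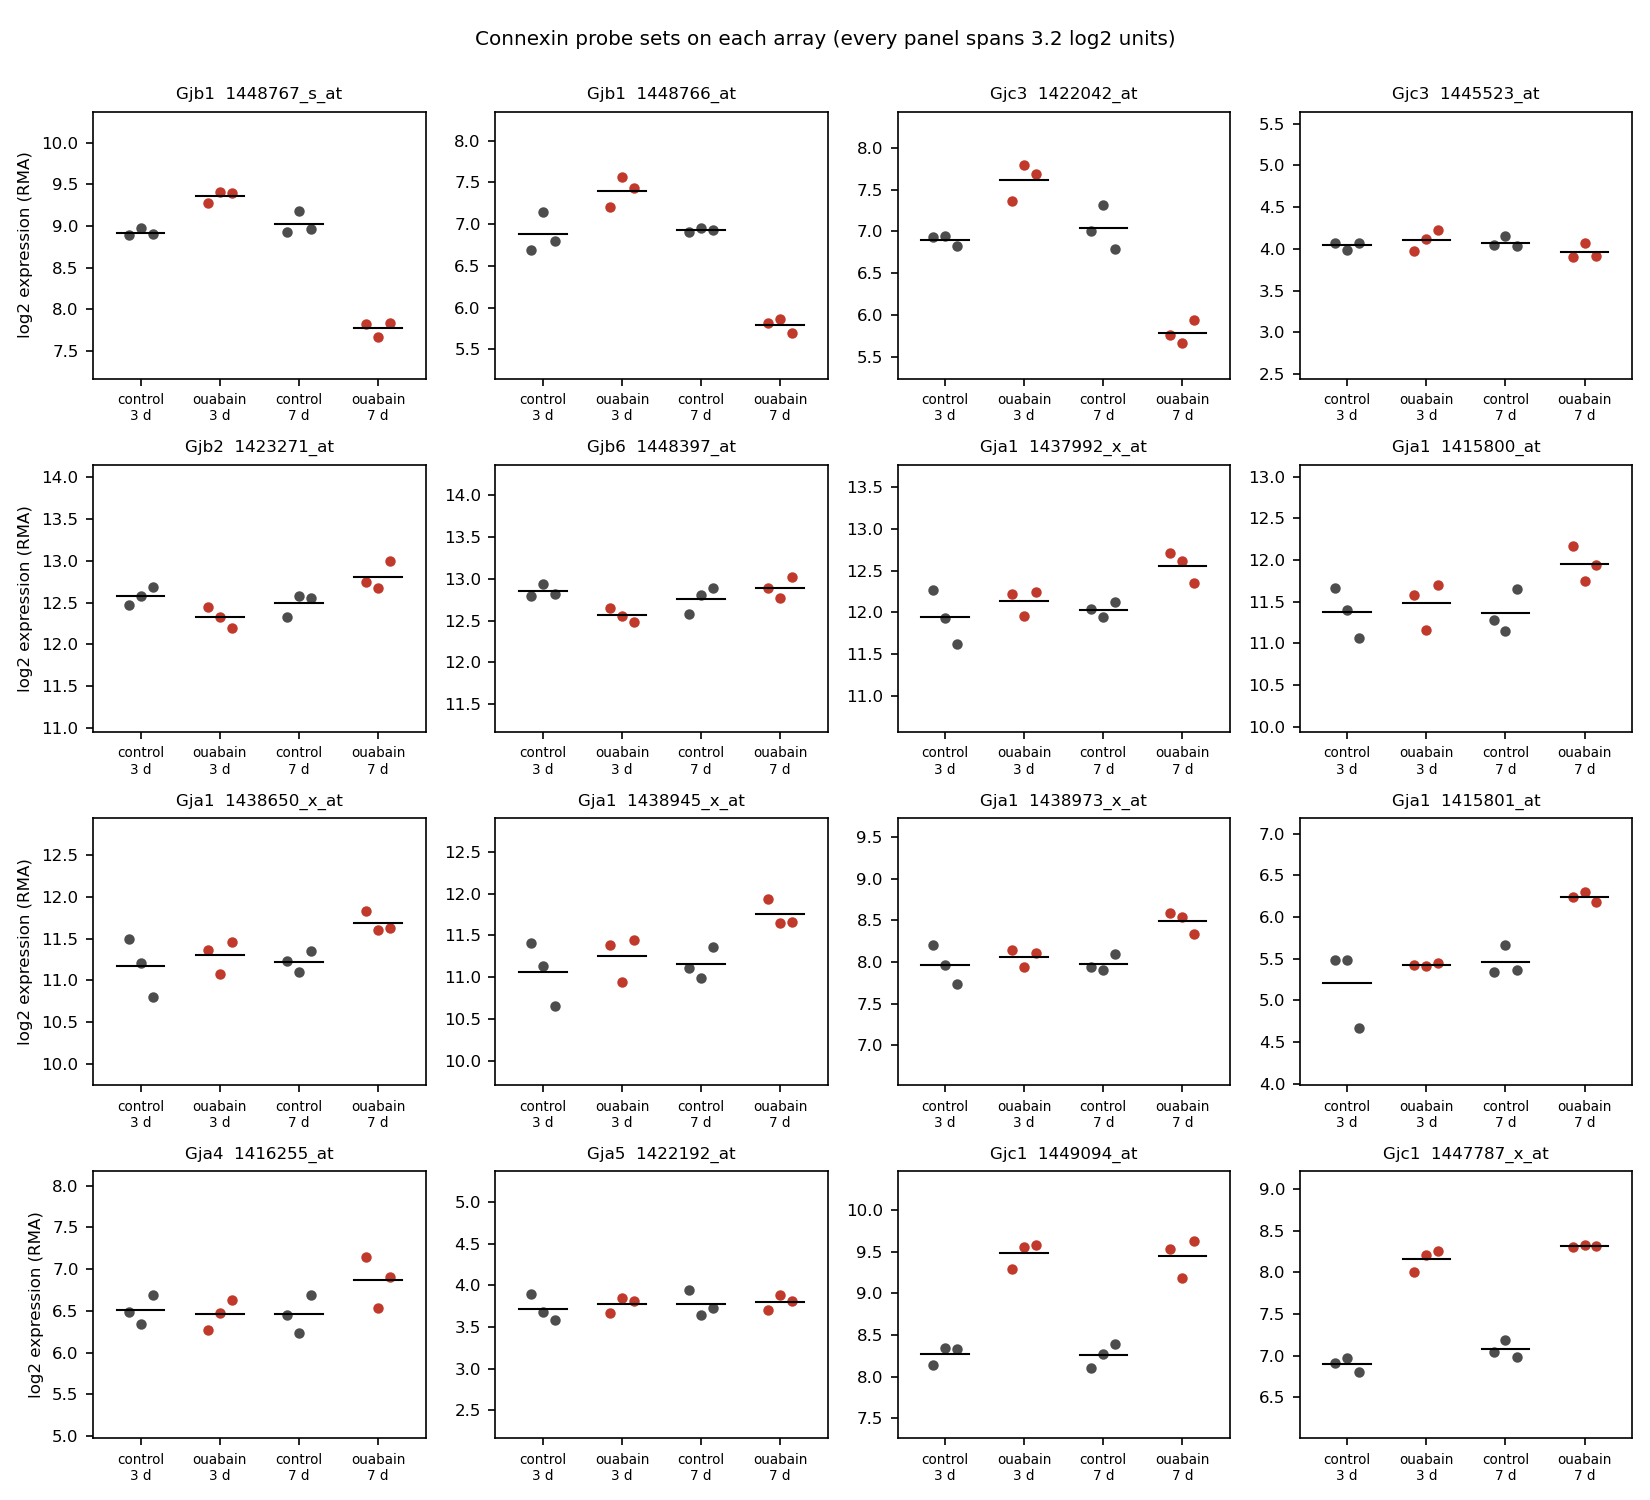
Log2 expression of each of the 16 connexin probe sets on the 12 arrays, with 1 point per array and a line for the group mean (n = 3 arrays), control in grey and ouabain in red. Every panel has the same height in log2 units around its own mean, and the treated points of Gjb1 and of the brighter Gjc3 probe set lie above the controls at 3 days and below them at 7 days, while those of Gjc1 lie above at each day.

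Gja1 showed log2 fold changes above 0 in all 6 probe sets at 7 days, with a size near the fold threshold. The brightest, 1437992_x_at, stood at log2 values of 12.27, 11.93 and 11.62 in the 3-day controls, 12.22, 11.96 and 12.24 in the treated nerves, 12.04, 11.94 and 12.12 in the 7-day controls and 12.71, 12.62 and 12.35 in the treated nerves of 7 days. The groups overlapped at 3 days and were separate at 7 days, and the same held for all 6 probe sets. At 7 days the log2 fold changes ranged from 0.46 to 0.78, and 3 probe sets were called higher, namely 1415801_at with 0.78 (standard error 0.18, adjusted p = 0.00736 by limma), 1438945_x_at with 0.60 (standard error 0.19, adjusted p = 0.0375) and 1415800_at with 0.59 (standard error 0.19, adjusted p = 0.0383). Of the remaining probe sets, 1437992_x_at and 1438973_x_at passed the p threshold alone, with 0.53 and 0.51 (adjusted p = 0.0247 and 0.00799), and 1438650_x_at with 0.46 did not (adjusted p = 0.0569). The largest change came from the dimmest probe set, 1415801_at, which stood above 6 only in the 3 treated arrays of 7 days, at 6.24, 6.30 and 6.18, and between 4.67 and 5.67 in the other 9. At 3 days the log2 fold changes of Gja1 ranged from 0.10 to 0.22 and none passed, and the difference of the responses passed in none. The calls of 1415800_at and 1438945_x_at were lost without control replicate 1 or 2, or ouabain-treated replicate 1 or 3, of 7 days. That of 1415800_at was also lost without control replicate 2 of 3 days (adjusted p = 0.0503), and that of 1438945_x_at without ouabain-treated replicate 2 of 7 days (adjusted p = 0.0592). Without control replicate 1, control replicate 2 or ouabain-treated replicate 1 of 7 days, the number of connexin probe sets called higher at that day was 3 in place of 5. The nearest profiles to that of Gja1 were those of Hacd4, an enzyme of fatty acid elongation, Lpar4, a receptor of lysophosphatidic acid, and Thbd, the endothelial thrombomodulin, at 0.092, 0.117 and 0.12.

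Gja1 is a connexin of astrocytes, fibroblasts and osteoblasts, and markers of these cells were examined beside it. Of 6 measured astrocyte markers 2 rose at 3 days and 1 rose at 7 days, where 7.51% and 7.57% of all genes were higher, with median log2 fold changes of 0.28 and 0.57. Aqp4, a water channel, had 0.67 and 0.92 (both called), Slc1a2, a glutamate transporter, 0.27 and 0.62, and Aldh1l1, a folate enzyme, 0.70 (called) and 0.55. The mean log2 level of the list lay between 9.30 and 9.85 in 3-day controls and 9.56 and 9.95 in treated nerves, and between 9.57 and 10.21 and 10.20 and 10.37 at 7 days. Control replicate 3 of 3 days, the lowest in Gja1, also had the lowest median difference from the mean of these controls in astrocyte markers (−0.36) and in oligodendrocyte markers (−0.43). It was the lowest in supporting cell markers too (−0.35). In the 7-day controls the brightest Gja1 probe set was lowest in replicate 2, at 11.94. The astrocyte and oligodendrocyte lists were lowest there in replicate 1, at −0.30 and −0.33. Oligodendrocyte markers were higher in 1 of 7 at 3 days and 2 of 7 at 7 days, with medians of 0.72 and 0.37. Mog, Mobp and Opalin, myelin proteins of these cells, had 0.81, 0.51 and 0.47 at 3 days and 0.04, 0.69 and 1.08 at 7 days, of which the 7-day value of Opalin was called. Fibroblast markers were higher in 1 of 8 at 3 days and 3 of 8 at 7 days, with medians of 0.26 and 0.64, and Col1a1, Col1a2 and Col3a1, collagen chains, had 1.33, 0.35 and 1.05 at 7 days, of which the last was called. Osteoblast markers were higher in none of 5 and 1 of 5, with medians of −0.23 and 0.46, where Ibsp, Sp7 and Dmp1 had 0.46, 0.23 and 0.44 at 7 days. The fibroblast list had mean log2 levels of 11.38 to 11.57 in 7-day controls and 12.21 to 12.44 in treated nerves, and the osteoblast list of 9.56 to 10.00 and 10.20 to 10.58. Their part in the values of Gja1 was not tested.

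Gjb2 and Gjb6, which both lie on chromosome 14, did not pass at either day. Gjb2 (1423271_at) stood at log2 values of 12.47, 12.58 and 12.69 in the 3-day controls and 12.45, 12.33 and 12.20 in treated nerves, and at 12.33, 12.58 and 12.56 against 12.74, 12.68 and 13.00 at 7 days. The treated arrays were thus just below all controls at 3 days and just above them at 7 days. The log2 fold changes were −0.25 (standard error 0.11, adjusted p = 0.149 by limma) and 0.32 (standard error 0.11, adjusted p = 0.0591), and their difference of 0.57 did not pass (adjusted p = 0.138). Gjb6 (1448397_at) stood at log2 values of 12.79, 12.94 and 12.82 against 12.65, 12.56 and 12.48 at 3 days and 12.58, 12.81 and 12.89 against 12.89, 12.77 and 13.02 at 7 days. Its treated arrays were below all controls at 3 days and overlapped them at 7 days. The log2 fold changes were −0.29 (standard error 0.10, adjusted p = 0.0619) and 0.13 (standard error 0.10, adjusted p = 0.394). Over the 12 arrays the profile of Gjb6 lay at a root mean square difference of 0.099 from that of Gjb2, which placed Gjb6 at rank 12 of 18192 genes from Gjb2 and Gjb2 at rank 59 from Gjb6.

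The dissection removed the lateral wall and most of the sensory epithelium. Genes listed as markers of both were measured, and whether any of that tissue remained was not tested. Otos and Coch, secreted proteins of fibrocytes, stood at mean log2 values of 14.05 and 14.18 in the 3-day controls, and Epyc, a proteoglycan of supporting cells, at 13.12. None of 11 lateral wall markers and none of 6 supporting cell markers was called at either day, where Otos, Coch and Slc26a4 had log2 fold changes of −0.34, −0.14 and −0.07 at 3 days and 0.02, −0.02 and 0.49 at 7 days, with adjusted p = 0.0057 for Otos at 3 days, under the fold threshold. Epyc, Otog and Tecta had −0.09, 0.36 and 0.30 and then 0.22, 0.33 and −0.88. The mean log2 level of the supporting cell list ranged from 8.43 to 9.43 over the 3-day controls and from 8.27 to 9.69 over the treated nerves of that day, and that of the lateral wall list from 9.70 to 9.75 and from 9.17 to 10.38. At 7 days these ranges were 8.36 to 8.87 and 8.47 to 8.69 for supporting cells and 9.29 to 10.24 and 9.53 to 9.61 for the lateral wall, and the part of either tissue in the values of Gjb2 and Gjb6 was not tested. Hair cell markers, 8 in number, showed no call at either day, with Myo7a, Otof and Pou4f3 at 0.11, −0.41 and 0.03 and then 0.11, −0.21 and 0.14.

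The vascular connexins did not pass. Gja4 (1416255_at) stood at log2 values of 6.49, 6.34 and 6.69 in the 3-day controls, 6.27, 6.48 and 6.63 in treated nerves, 6.45, 6.24 and 6.69 in the 7-day controls and 7.15, 6.54 and 6.91 in treated nerves of 7 days. Control and treated arrays overlapped at each day. The log2 fold changes were −0.05 and 0.41 (standard error 0.17 for each, adjusted p = 0.902 and 0.0938). Gja5 (1422192_at) lay between 3.58 and 3.94 on all 12 arrays, under the lower quartile of each, so a level was not distinguishable from the floor of the arrays. Its log2 fold changes were 0.06 and 0.03. Of 10 endothelial markers none was called at either day, with medians of −0.12 and 0.34, and Pecam1, Cdh5 and Tek, proteins of endothelial junctions and a receptor, had 0.30, 0.38 and 0.49 at 7 days. Of 6 markers of arterial endothelium 1 was called higher at 7 days, with Efnb2, an ephrin, at 0.03, Hey1, a Notch target, at 0.60 (called) and Bmx, a kinase, at 0.44. Bmx had −0.55 at 3 days, and its response differed between the days (0.99, adjusted p = 0.00498).

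**Figure D4:**
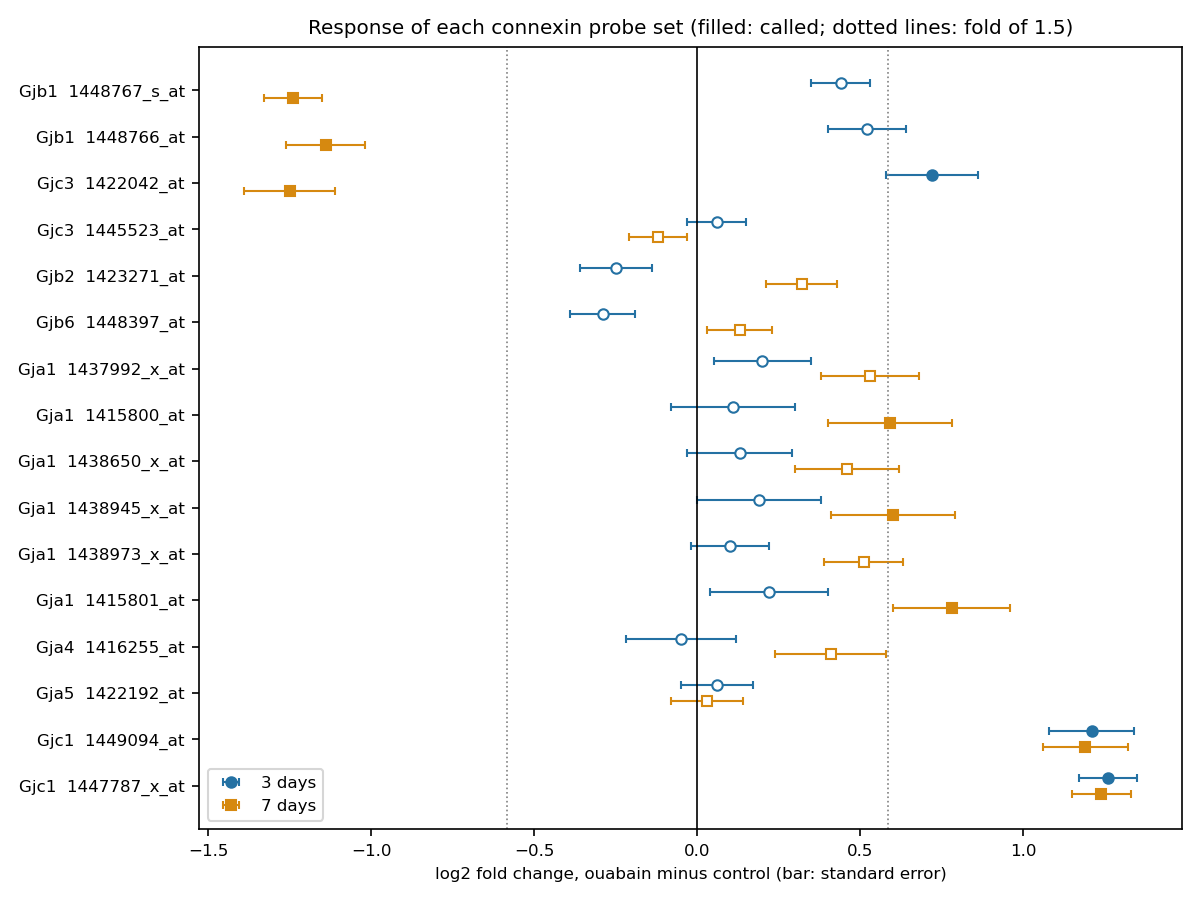
Log2 fold change of ouabain against control for each connexin probe set at 3 days (circles) and 7 days (squares), with bars for the standard error, where filled symbols were called and dotted lines mark a fold of 1.5. Gjb1 and Gjc3 (1422042_at) lie on opposite sides of 0 at the 2 days, Gjc1 lies near 1.2 at each, and the Gja1 squares lie between 0.46 and 0.78.

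Other connexins and the pannexins, which form channels in a single membrane, were measured in 9 genes, of which 2 were lower at 3 days, 3 were lower at 7 days and none was higher. The median log2 fold changes were 0.00 and −0.07. Gjd2, the connexin of electrical synapses between neurons, stood at log2 values of 8.30, 8.52 and 8.06 in 3-day controls and 6.33, 5.40 and 5.05 in treated nerves, and at 8.65, 8.43 and 8.24 against 5.16, 4.92 and 4.67 at 7 days. Its log2 differences were −2.70 and −3.53 (standard error 0.27, adjusted p = 1.75e-05 and 2.62e-06 by limma), and its second probe set had −0.47 and −0.92, called at 7 days only. Panx2, a pannexin of neurons, stood at 7.71, 7.64 and 7.86 against 5.15, 4.06 and 3.73 at 3 days and at 7.76, 7.37 and 7.46 against 4.45, 4.01 and 4.09 at 7 days, with log2 differences of −3.42 and −3.35 (standard error 0.28). In 4 of the treated arrays Panx2 lay under the lower quartile of the array, so these differences are limited by the floor of the arrays and may understate the fall. For Gjd2 and Panx2 ouabain-treated replicate 1 was the highest treated array at each day. Neuronal markers were lower in 8 of 8 at each day, with Tubb3, Rbfox3 and Snap25 at −2.06, −3.06 and −2.10 and then −2.92, −4.13 and −2.95, and their median difference from the controls in that replicate was −1.22 at 3 days, against −3.01 and −2.69 in the other treated arrays, and −2.17 at 7 days, against −3.76 and −3.95. Panx1, a broadly expressed pannexin, followed a later course. It stood at 8.57, 8.57 and 8.77 against 8.04, 8.22 and 8.27 at 3 days and at 8.56, 8.58 and 8.44 against 7.02, 6.72 and 6.92 at 7 days. The log2 fold change was −0.46 at 3 days (standard error 0.10, adjusted p = 0.00534, under the fold threshold) and −1.64 at 7 days (standard error 0.10, adjusted p = 7.47e-07), and the difference of −1.18 was called (adjusted p = 0.00321). Gja3, Gja10, Gjb5, Gjd4, Gje1 and Panx3 were not called at either day, and their 3-day control means lay between 2.83 and 4.90. At 7 days the brightest Panx3 probe set had a log2 fold change of 0.74 (adjusted p = 0.0598 by limma), and the others had 0.11 each. That value of 0.74 was called in 3 of the alternatives described below, 1 of them the replicate block (adjusted p = 0.00982 by limma).

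**Figure D5:**
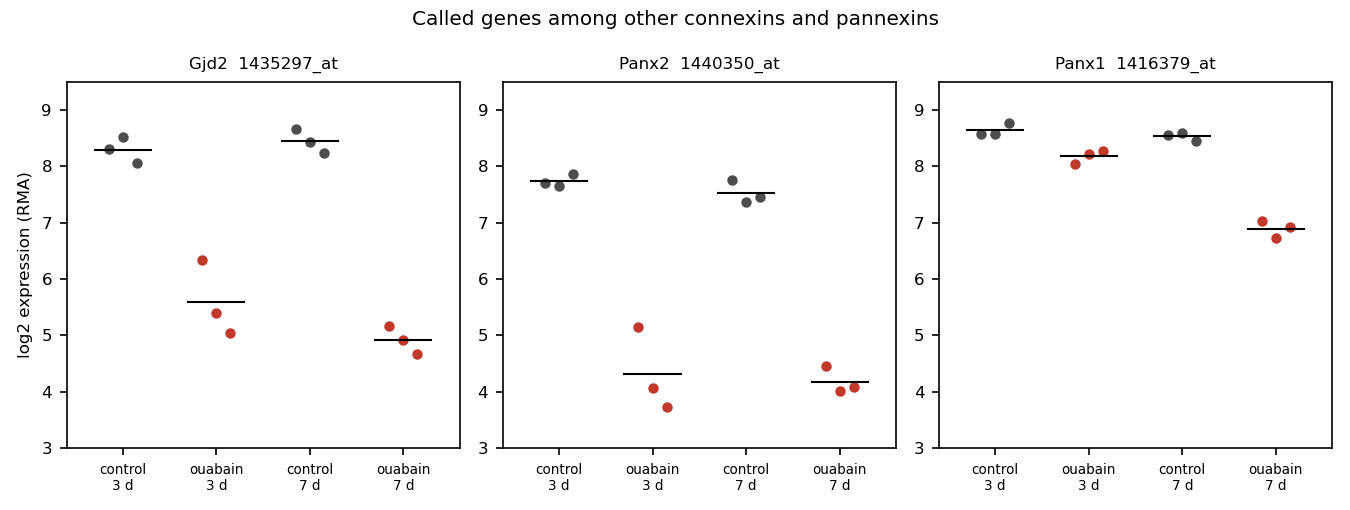
Log2 expression of Gjd2, Panx2 and Panx1 on the 12 arrays, with 1 point per array and a line for the group mean (n = 3 arrays), control in grey and ouabain in red. Gjd2 and Panx2 are low in treated nerves at each day, and Panx1 is lowest in those of 7 days.

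Partners bind connexins or move them to the membrane. Of 10 measured, 1 was higher and 1 lower at each day, a share near that of all genes (7.51% and 7.57% higher, 8.06% and 8.2% lower), with median log2 fold changes of −0.18 and 0.10. Tjp1, the scaffold protein ZO-1 that binds the tail of Cx43, had −0.18 and 0.03, Cav1, a caveolar protein, −0.18 and 0.33, and Dbn1, an actin-binding protein, −0.34 and −0.49. The lower gene at each day was Cdh2, the N-cadherin, with −0.94 and −0.85 (standard error 0.15 for each) and both probe sets called. The higher gene was Ccn3, a secreted matrix protein, at 3 days with 1.14 (standard error 0.20), and Src, a kinase that phosphorylates Cx43, at 7 days with 0.63 (standard error 0.09) in 1 of 2 probe sets. At 3 days that Src probe set had 0.56 (adjusted p = 0.000518 by limma), under the fold threshold. The difference between the days passed for neither Ccn3 nor Src (adjusted p = 0.305 and 0.876 by limma). These 3 genes are named after their values were seen. Both measured erythroid markers, Hba-a1 with −0.11 and −0.01 and Alas2 with −0.41 and −0.44, did not pass.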

How the data were processed

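RNA of 12 modiolus samples was hybridised to Affymetrix arrays, and the authors deposited log2 values made by RMA, with Expression Console and MAS5 also named in their processing notes and no version given. The 64 control probe sets were left out. Of the 45037 tested, 34945 had exactly 1 symbol, 932 several and 9160 none. No value column lacked a sample (0 columns). Groups were taken from the sample titles. A linear model with 4 group means was fitted over all arrays with limma 3.58.1 in R 4.3.3, with Benjamini-Hochberg adjustment over all probe sets, and was tested on simulated data. Python 3.11.15 and matplotlib 3.10.9 were used for summaries and figures. The number of arrays limits the precision.

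The connexins, gene lists and tests were chosen with earlier results of these data known. Named were every connexin probe set, each called gene among other connexins and pannexins, the first 3 measured genes of every other list, and the 3 nearest profiles of each called connexin. Other genes are marked as named after their values were seen. A list gene was represented by its brightest probe set over all arrays. Alternatives were other tests, the replicate block, fold thresholds, a filter on dim probe sets, normalizations, moderation, array weights, the mean over probe sets, each array left out, and, chosen after seeing the data, both ouabain-treated arrays with the smallest fall of neuronal genes left out.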

Additional observations from a re-analysis of the deposited data

Results flagged for a closer look

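Among the connexin probe sets and the brightest probe set of each listed gene, the 7-day response differed from the 3-day response in 8, by limma's test of the difference itself. Over all 18193 genes, each by its brightest probe set, 0.247% were higher and 0.923% lower in this test. The 8 mix genes with probe sets, among them both of Gjb1, so they are not a share to set beside these. For Gjb1 the difference was -1.68 in 1448767_s_at and -1.66 in 1448766_at on the log2 scale. For Gjc3 it was -1.97 in 1422042_at. Panx1 had a difference of -1.18 and Pou3f1 of -1.39. Among the marker genes, Ncmap had a difference of -1.01, Bmx of 0.99 and Myh11 of 1.23. For Myh11 the controls also differed in mean, at 7.83 at 3 days and 7.02 at 7 days (not called). Treated nerves stood at means of 6.85 and 7.26.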

How the results depend on the processing

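Over the alternatives, 1100 values of single connexin probe sets kept their side of the threshold, 10 came to pass it, 20 ceased to pass it, and none changed direction when called. Many of the 1100 had little room to change. They include probe sets near the floor and fits without an array of the other day, which keep the log2 fold change. Of the 20 losses, 8 were of Gja1 1415800_at and 10 of Gja1 1438945_x_at, at 7 days. Some small values that were not called did change sign, such as Gja1 1415800_at at 3 days, which ran from −0.05 to 0.27. The number of connexin probe sets called higher at 3 days was 5 in place of 3 with no fold threshold. The number called higher at 7 days was 3 in place of 5 with the methods' t-test and adjusted p, 2 with a fold above 2, and 3 without both ouabain-treated arrays with the smallest fall of neuronal genes, an alternative chosen after seeing the data. With each array left out in turn, the counts ranged from 3 to 4 higher and 0 to 0 lower at 3 days, 3 to 5 higher and 3 to 3 lower at 7 days, 3 to 4 for the difference between days, and 0 to 0 between the controls. The 3-day call of Gjc3 in 1422042_at was lost with a fold above 2. The controls were the opposite ears of treated mice, but whether arrays of equal replicate number share mice is not stated in the sources used here. Deviations of same-numbered arrays correlated at 0.334, 0.089 and 0.177 at 3 days and 0.277, 0.155 and 0.019 at 7 days, not all over 0.1, so no pairing was assumed. All 6 were above 0, and 10 of 12 arrays correlated best with their own number. Of the correlations between different numbers 9 of 12 were below 0, which adds little, since the deviations within a group sum to 0. The data thus leave the pairing unsettled. With the replicate block, 3 probe sets were higher and 0 lower at 3 days, 4 higher and 3 lower at 7 days, and 3 differed between days, and Gja1 1438945_x_at lost its 7-day call (adjusted p = 0.0515). Gja5 and Gjc3 1445523_at lay under the lower quartile of all 12 arrays, which limits what their values can show.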
